A study of Homo sapiens with 14 samples.

Results

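STAR and 5 of its relatives, STARD3, STARD4, STARD5, STARD7 and STARD10, belong to the family of lipid transfer proteins that share a START domain. They were followed in HepG2 cells, an established human liver tumour line. The members were all probe sets, the sets of short probes that each read a transcript, whose annotated symbol was one of these names. There were 8 such probe sets for 6 genes, of 54675 probe sets and 19775 genes on the array. STARD10 had 3 probe sets and each of the others had 1. A filter on low values (a mean above 6.19 over all arrays) left 7 of the 8, and all 6 genes were tested. STAR was chosen by its measured ratios at 72 and 120 h and the relatives were set against it. The differences between the arms of all 6 genes at those times are therefore a description without a test.

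One group of cultures was transfected with miR-124, a microRNA best known from neurons, which lowers messenger RNAs that hold a matching site, and the other with a negative control. There were 14 arrays, one per arm at each of 4, 8, 16, 24, 32, 72 and 120 h, all of total RNA. The labels name no dose, no sequence for the control and no separate cultures. The pairs of a window below are different times and not repeats of one time. The SD, SE and p-values thus mix change of the ratio between times with differences between arrays, which may be technical. Levels are log2 RMA values as deposited, so 1 unit is a 2-fold difference, and the ratio is the miR-124 level minus the control level of the same time.

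A START domain folds around a hydrophobic pocket that holds a single lipid. STAR carries cholesterol to the inner mitochondrial membrane, the limiting step of steroid hormone synthesis in the adrenal gland and gonads. In liver cells, mitochondrial cholesterol also feeds a side route of bile acid synthesis. STARD3 sits in late endosome membranes and moves cholesterol at contacts with the endoplasmic reticulum. STARD4 and STARD5 are small soluble sterol carriers, of which STARD4 is a target of the sterol-sensing factors SREBF1 and SREBF2. STARD7 carries phosphatidylcholine to mitochondria, and STARD10 transfers phosphatidylcholine and phosphatidylethanolamine.

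The promoter windows of the 3 relatives whose levels moved most over the course are shown because their time courses are described below. Each window runs from 250 bases before to 50 after the gene start in RefSeq (GRCh38.p14, minus strand, read 5′ to 3′), and capitals mark a CCAAT box (CCAAT), a GC box (GGGCGG) or an E-box (CACGTG) on either strand.
STARD4, chr5:111512486-111512785: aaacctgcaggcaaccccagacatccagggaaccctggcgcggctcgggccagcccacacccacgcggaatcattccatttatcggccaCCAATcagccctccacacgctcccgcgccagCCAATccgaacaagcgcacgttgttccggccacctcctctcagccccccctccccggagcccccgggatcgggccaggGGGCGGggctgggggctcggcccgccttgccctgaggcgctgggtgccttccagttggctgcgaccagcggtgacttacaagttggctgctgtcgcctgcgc
STARD7, chr2:96208778-96209077: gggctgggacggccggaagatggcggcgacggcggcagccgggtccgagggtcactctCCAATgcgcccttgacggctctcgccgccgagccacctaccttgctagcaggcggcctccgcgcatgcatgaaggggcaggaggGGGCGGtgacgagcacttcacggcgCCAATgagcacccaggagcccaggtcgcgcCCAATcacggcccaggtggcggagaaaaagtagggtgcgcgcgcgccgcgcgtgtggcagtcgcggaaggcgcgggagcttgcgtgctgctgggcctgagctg
STARD10, chr11:72793998-72794297: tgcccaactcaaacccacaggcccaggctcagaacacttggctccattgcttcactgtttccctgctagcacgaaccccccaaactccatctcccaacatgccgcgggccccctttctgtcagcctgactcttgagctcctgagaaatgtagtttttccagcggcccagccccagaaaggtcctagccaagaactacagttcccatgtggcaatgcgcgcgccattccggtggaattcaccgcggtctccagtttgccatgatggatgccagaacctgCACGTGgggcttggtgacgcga

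The windows differed in these letters. STARD4 held 2 CCAAT boxes and 1 GC box, STARD7 held 3 and 1, and STARD10 held 0 of both and 1 E-box. Of 35116 RefSeq promoter windows, 34.6% held a CCAAT box, 45.0% a GC box and 7.26% an E-box. No window of the 5 relatives held the sterol response element searched (TCACNCCAC, in 1.13% of all windows) or the half-site of steroidogenic factors (AAGGTCA, in 3.92%), each looked for on both strands. These matches describe letters in the windows and not bound sites.

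The arrays carried high signals of hepatocyte genes, while the markers of steroid-making cells were mixed. The 9 hepatocyte markers measured, among them ALB, AFP, APOA1 and SERPINA1, averaged 12.92 to 13.26 with miR-124, against 12.93 to 13.38 in controls. The 9 markers of steroidogenic cells averaged 5.78 to 6.16 with miR-124, against 5.86 to 5.997 in controls. CYP11A1, HSD3B2, CYP11B1 and LHCGR lay below the array median on all 14 arrays. NR5A1, INHA and FATE1 lay below it on some arrays and above it on others. MC2R, the corticotropin receptor, lay above it on all 14, at 7.72 to 8.19 with miR-124, against 7.70 to 7.92 in controls. CYP17A1 also lay above it on all 14, at 6.61 to 9.33 with miR-124, against 6.69 to 7.31 in controls. Probe sets for 18S ribosomal RNA were brightest at 4 h with miR-124, at 11.05, against 8.70 in the 4 h control, while the other arrays lay between 7.60 and 8.28 with miR-124 and between 7.31 and 9.20 in controls.

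STAR was low in control cells throughout and climbed in miR-124 cells from 16 to 72 h. Its level with miR-124 was 5.88, 5.77, 6.19, 6.43, 7.10, 9.55 and 9.25 in order of time. In controls it was 6.08, 5.89, 5.88, 5.92, 5.90, 6.38 and 5.85. From 24 h on every miR-124 array lay above every control array, by a small margin at 24 h (6.43 against a highest control of 6.38). The 72 and 120 h values are those by which STAR was chosen, and the share of all genes with such a separation was not counted. At 4 and 8 h the miR-124 array was the lower of its pair. Of the 7 control arrays, 6 had STAR below the array's own median, which lay between 6.15 and 6.21 across arrays.

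The ratio of STAR grew at every step after 4 h. In order of time it was −0.20, −0.11, 0.31, 0.51, 1.20, 3.17 and 3.41. At 120 h the level was lower than at 72 h in both arms, and by more in the control. The last 3 ratios are folds of 2.29, 9.0 and 10.6. The control signals beneath these folds lay near or below the array median, where signal above background is not known here, so they are ratios of array signals and not measures of transcript number. Among 13128 genes tested, those at least 2-fold higher made up 0.419% at 32 h, 3.85% at 72 h and 2.31% at 120 h.

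Averaged over the late window (72 and 120 h), STAR was 9.77-fold higher with miR-124 (log2 3.29 ± 0.17, SD, n = 2 pairs). That was the highest of the 13128 late means, and by single times STAR stood 22nd from the top at 32 h, 4th at 72 h and 2nd at 120 h. At 72 h STAR exceeded 92.5% of all probe sets on the miR-124 array, against 53.9% on the control array, and at 120 h 90.0% against 43.1%. These ranks describe the value by which STAR was picked. The RNA came from whole cultures, in which more cells with STAR and more STAR per cell cannot be told apart.

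**Figure D1:**
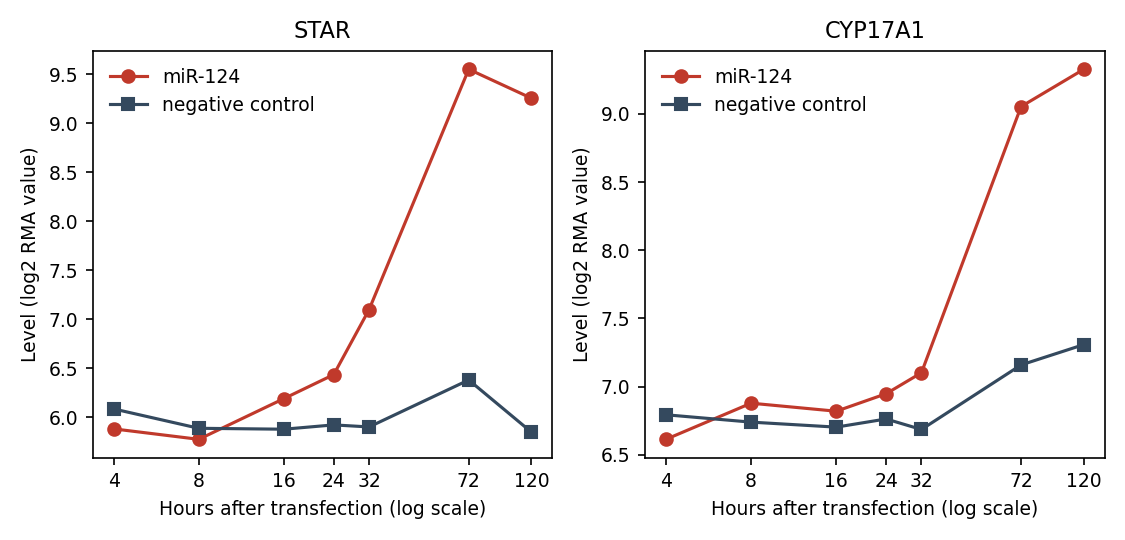
Levels of STAR and of the steroid hydroxylase CYP17A1 (log2 RMA value, vertical axis) by hours after transfection (log axis), with 1 point per array, miR-124 in red circles and negative control in grey squares. STAR with miR-124 reaches 9.55 at 72 h and CYP17A1 9.33 at 120 h, while no control point exceeds 6.38 for STAR or 7.31 for CYP17A1. CYP17A1 is 1 of the 9 markers of steroidogenic cells measured, and the others are not drawn. Their late mean ratios ran from −0.35 for INHA to 0.13 for HSD3B2.

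Whether STAR moved before 72 h was tested on the arrays of 4 to 32 h, because it was picked by its ratios at 72 and 120 h. The test is not fully independent of that choice, since the late miR-124 arrays brought STAR above the filter. limma was fitted to the 10 arrays of 4 to 32 h, with an effect for the early window (4 and 8 h) and one for the middle window (16, 24 and 32 h). In the middle window STAR rose by 0.67 ± 0.14 on the log2 scale (SE, n = 3 pairs, 1.60-fold, limma adjusted p = 0.0144) and was higher in 3 of 3 pairs. In the early window it was at −0.16 ± 0.18 (n = 2 pairs, limma adjusted p = 0.9997). The difference between the middle and early effects was 0.83 ± 0.23 and did not pass (limma adjusted p = 0.108), where 2.01% of all genes passed.

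The middle call was lost without 24 h, at a limma adjusted p of 0.0668 (0.75 ± 0.19). Without 16 h it was 0.86 ± 0.14 (limma adjusted p = 0.00261). Without 32 h the change was smaller, 0.41 ± 0.09 (limma adjusted p = 0.0288). At 24 h the 3′ probe set of ACTB, a sign of RNA quality, exceeded the 5′ one by 0.561 with miR-124, against 0.271 in the control, and the part of this in the call was not tested. STAR passed the filter of 6.19 only through the late miR-124 arrays, since its mean without them was 6.11. With no filter its limma adjusted p was 0.0112.

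None of the 5 relatives passed in the early or middle window. In the middle window the changes were 0.10 ± 0.11 for STARD10, 0.07 ± 0.06 for STARD5, 0.05 ± 0.06 for STARD7, 0.04 ± 0.06 for STARD4 and −0.01 ± 0.09 for STARD3 (SE, limma adjusted p from 0.516 to 0.958). STAR was thus 1 of 6 members called in the middle window, where 16.7% of all genes tested were called, with 8.54% higher and 8.2% lower. The share of members is near that of all genes. In the early window limma called 0 of 6 members and 0% of all genes, with 0 members and 449 of all genes at an unadjusted p under 0.05.

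At 72 and 120 h no relative reached a 2-fold difference in either direction. Of all genes tested, 5.93% were at least 2-fold lower at 72 h and 1.17% at 120 h. The median ratio of the 5 relatives was 0.11 at 72 h and 0.18 at 120 h, against 0.02 and −0.01 over all genes tested. Their range was −0.54 to 0.28 at 72 h and 0.00 to 0.51 at 120 h. STAR stood 3.06 above the relatives' median at 72 h and 3.23 above it at 120 h, as the choice of STAR would give.

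**Figure D2:**
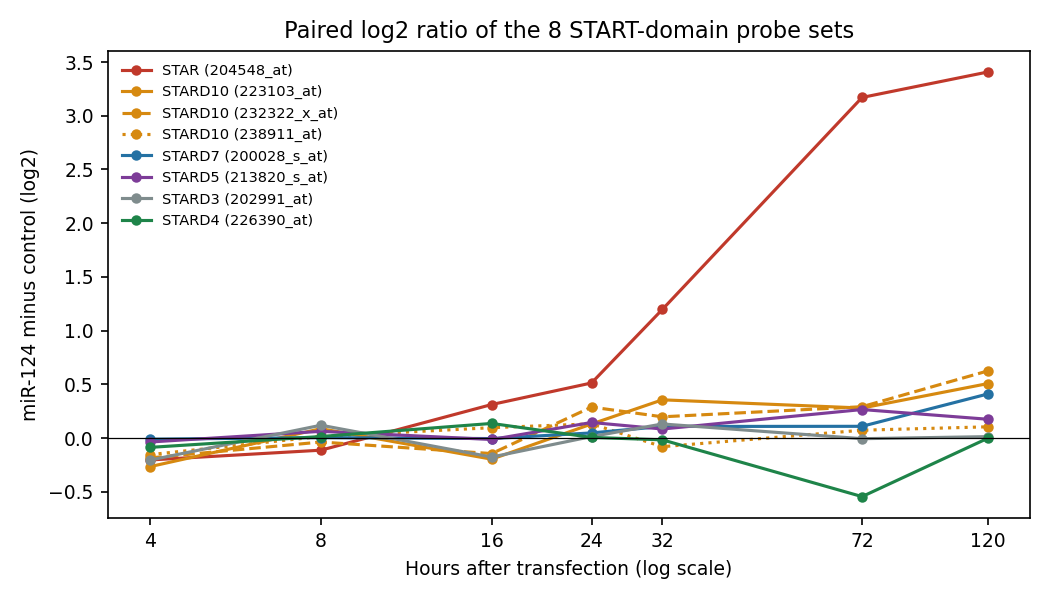
Paired ratio (miR-124 minus control, log2, vertical axis) of the 8 probe sets by hours after transfection (log axis), with 1 line per probe set and broken lines for the other STARD10 probe sets. STAR lies above the others from 16 h, where it is at 0.31. It reaches 1.20 at 32 h and ends at 3.41, while the relatives stay between −0.54 and 0.63 at all times.

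STARD4 changed with time in culture and differed little between the transfections. Its level with miR-124 was 8.39, 8.48, 9.37, 9.15, 9.08, 9.41 and 10.08 in order of time. Control cells had 8.48, 8.46, 9.23, 9.14, 9.10, 9.95 and 10.08. Both arms thus stepped up between 8 and 16 h and again late, and the pair of 72 h alone stood apart, with a ratio of −0.54 that was back at 0.00 by 120 h. In controls the slope was 0.35 ± 0.04 log2 per doubling of time (SE, n = 7 arrays, limma adjusted p = 0.00946), and from 4 to 120 h the level grew 3.03-fold. The 72 and 120 h control arrays enter this slope, that of STARD7 below and the late ratios.

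STARD7 was lower at the late times in both arms, and less so with miR-124. With miR-124 it was 11.93, 11.83, 11.91, 11.85, 11.94, 11.68 and 11.65 in order of time. In controls it was 11.94, 11.82, 11.91, 11.80, 11.83, 11.57 and 11.24. The ratio was within 0.11 of 0 up to 72 h and 0.41 at 120 h, so the arms parted at the last time. In controls STARD7 fell by 0.12 ± 0.03 log2 per doubling of time (limma adjusted p = 0.0486), a call near the threshold that 8 of 10 alternatives lost. Without 120 h the slope was −0.07 ± 0.03 (limma adjusted p = 0.169).

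Over the control course limma called 2 of the 6 members, STARD4 and STARD7, where 8.2% of all genes were called, 2.71% with a rising slope like STARD4 and 5.49% with a falling one like STARD7. The slopes of the other 4 were 0.05 ± 0.03 for STARD10, 0.01 ± 0.04 for STAR, 0.00 ± 0.02 for STARD3 and −0.02 ± 0.02 for STARD5 (limma adjusted p from 0.214 to 0.954). The 72 and 120 h control arrays enter both these slopes and the late ratios.

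STARD10 drifted upward with miR-124 and stayed flatter in controls. The brightest of its probe sets read 9.85, 10.00, 9.98, 10.26, 10.43, 10.65 and 10.74 with miR-124 in order of time. In controls it read 10.12, 9.91, 10.17, 10.13, 10.08, 10.37 and 10.23. Its ratio was below 0 at 4 and 16 h, and 0.36 at 32 h, 0.28 at 72 h and 0.51 at 120 h, a late mean of 0.39 ± 0.16 (SD, n = 2 pairs, 1.31-fold).

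The second STARD10 probe set, of a design that can also bind other transcripts, gave a late mean of 0.46 ± 0.24. The dimmest one had a mean level of 6.18, below the filter, and a late mean of 0.09 ± 0.02. The bright pair of probe sets thus moved together, and the dim one did not follow them.

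STARD3 and STARD5 kept a narrow range. STARD3 lay between 7.16 and 7.36 with miR-124, against 7.18 and 7.37 in controls, and its late ratios were −0.01 and 0.01. STARD5 lay between 6.48 and 6.81 with miR-124, against 6.34 and 6.59 in controls, and its late ratios were 0.27 and 0.18. The ranges of the arms overlapped almost wholly for STARD3 and in part for STARD5.

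**Figure D3:**
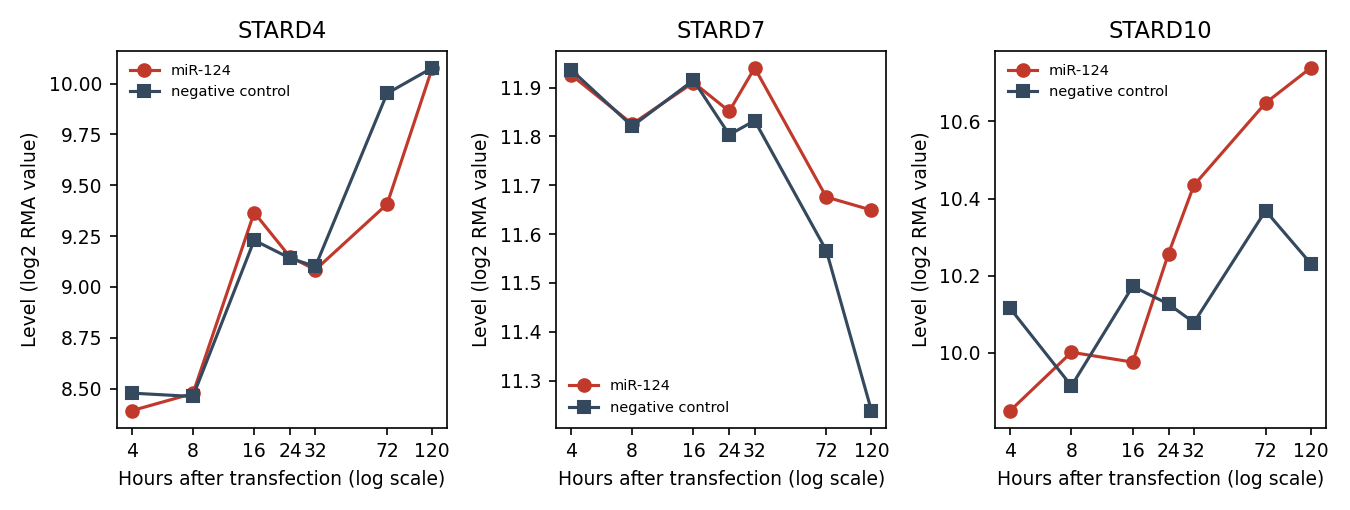
Levels of STARD4, STARD7 and STARD10 (log2 RMA value, each panel with its own axis range) by hours after transfection (log axis), with 1 point per array, miR-124 in red circles and negative control in grey squares. STARD4 climbs to 10.08 in both arms, STARD7 ends at 11.65 with miR-124 against 11.24 in the control, and STARD10 ends at 10.74 against 10.23.

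Of 9 other START-domain proteins on the array, 6 passed the filter, and they went in both directions. For these and for other genes that are no members, the late window was tested in a fit of 3 windows over all 14 arrays, in which 29.1% of all genes were called, 16.5% higher and 12.6% lower. CERT1, which carries ceramide to the Golgi, was lower in the middle window (−0.52 ± 0.08, limma adjusted p = 0.00332, and 0.0501 without 24 h) and in the late window (−0.46 ± 0.10, adjusted p = 0.0131). Its other 3 probe sets were lower too, with late means of −0.46, −0.28 and −0.19. PCTP, a phosphatidylcholine carrier, was lower late (−0.35 ± 0.09, adjusted p = 0.0181, and 0.105 without 72 h).

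STARD13 was higher late (0.66 ± 0.13, limma adjusted p = 0.00669), and its second, dimmer probe set was at 0.01. Its relative DLC1 was lower in the middle window (−0.30 ± 0.07, adjusted p = 0.0165, lost without 24 or 32 h) and higher late (0.36 ± 0.09, adjusted p = 0.0168, and 0.0552 without 120 h). A second bright DLC1 probe set had the same signs, −0.35 and 0.27, and 3 dim ones lay between −0.08 and 0.04 in the middle window and between −0.46 and 0.02 late. STARD8 (0.20 ± 0.09) and ACOT11 (0.14 ± 0.12) did not pass late. In all, 2 of the 6 were called higher and 2 lower late, with a median of 0.17 against −0.01 over all genes.

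Steroid hormone synthesis genes were called in part. CYP17A1, the hydroxylase and lyase that leads from progestagens to androgens, was 3.88-fold higher late (1.96 ± 0.11, n = 2 pairs, limma adjusted p = 0.000105), and higher by 1.90 at 72 h and 2.02 at 120 h. Its level was 9.05 and 9.33 with miR-124, against 7.16 and 7.31 in controls, and before 72 h it lay between 6.61 and 7.10 with miR-124, against 6.69 and 6.79 in controls. The late groups did not overlap, but each held only 2 arrays, and the share of all genes with such a separation was not counted. Its second probe set, with a mean level of 3.90, had a late mean of 0.48.

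SRD5A1, a steroid reductase, was higher late by 0.84 ± 0.10 (limma adjusted p = 0.000912), and HSD17B12 was lower by 0.39 on the log2 scale (adjusted p = 0.0256, and up to 0.0865 without 24, 72 or 120 h). HSD17B2, which oxidises sex steroids, was lower in the middle window (−0.58 ± 0.10, adjusted p = 0.00617). CYP11A1, the enzyme that makes pregnenolone from the cholesterol STAR delivers, stayed at 5.25 and 5.26 at 72 and 120 h with miR-124, against 5.10 and 5.32 in controls, and was below the filter. Of 11 genes tested 2 were higher and 1 lower late, with a median of 0.03. Over all genes, 16.5% were higher and 12.6% lower late.

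**Figure D4:**
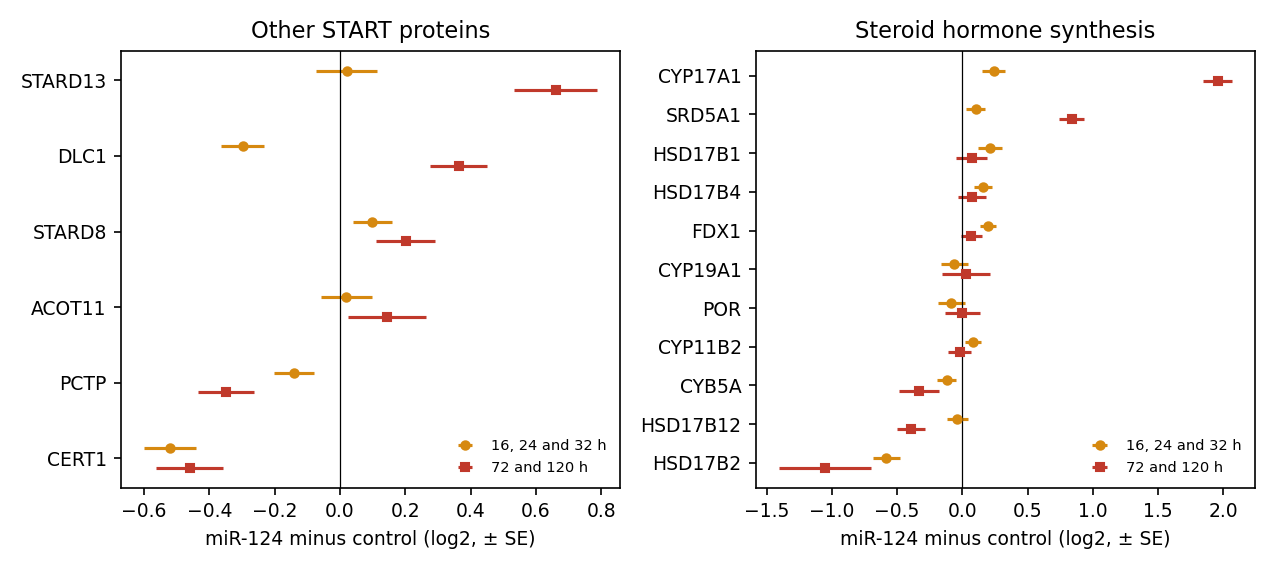
Change (miR-124 minus control, log2, ± SE from limma, horizontal axis) of each tested gene of 2 lists, other START-domain proteins at the left and steroid hormone synthesis at the right, in the middle window (circles, n = 3 pairs) and the late window (squares, n = 2 pairs). CYP17A1 stands at 1.96 late, CERT1 is below 0 in both windows, and DLC1 lies on opposite sides of 0.

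Genes that move cholesterol within the cell were called in both directions. Of 17 sterol carriers and contact-site proteins, 3 were higher and 5 lower in the middle window, and 2 higher and 4 lower late (median −0.13). Among all genes tested, 8.54% were higher and 8.2% lower in the middle window, and 16.5% higher and 12.6% lower late. OSBP, which exchanges cholesterol for a phosphoinositide at the Golgi, was lower in both windows (−0.79 ± 0.08, limma adjusted p = 0.000479, and −0.93 ± 0.11, adjusted p = 0.00102). VAPB, the endoplasmic reticulum anchor of several START and OSBP family proteins, was at −0.34 ± 0.07 (lost without 24 or 32 h) and −0.55 ± 0.11 (late adjusted p = 0.00766, and 0.0536 without 72 h). MOSPD2, another such anchor, was at −0.52 ± 0.11 late (adjusted p = 0.00876).

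LIPA, the lysosomal acid lipase that frees cholesterol from its esters, was lower late (−1.10 ± 0.17, limma adjusted p = 0.00277). STARD3NL, which resembles the membrane part of STARD3 and has no START domain, was higher in both windows, at 0.30 ± 0.07 (lost without 24 or 32 h) and 0.36 ± 0.09 (late adjusted p = 0.0169). OSBPL2 was at 0.48 ± 0.13 late (adjusted p = 0.0283, and up to 0.203 without 4, 8, 24 or 72 h). Leaving out single times moved the middle counts of this list to between 0 and 3 higher and between 2 and 5 lower.

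In mitochondrial cholesterol import, 0 of 11 genes were higher and 2 lower late, the outer membrane channel VDAC2 (−0.59 ± 0.11, limma adjusted p = 0.00478) and ATAD3A (−0.51 ± 0.15, adjusted p = 0.0344, and 0.276 at most without 24, 32 or 72 h). Among all genes tested, 16.5% were called higher and 12.6% lower late. Leaving out single times gave 1 to 5 lower genes of the 11. In the middle window VDAC2 was at −0.39 ± 0.07 (adjusted p = 0.00700, lost without 24 or 32 h). VDAC3 was then at −0.55 ± 0.09 (adjusted p = 0.00497, and 0.0584 without 24 h) and SLC25A4 at 0.29 ± 0.06 (adjusted p = 0.0156, lost without 24 or 32 h). TSPO, the outer membrane cholesterol-binding protein, was not among the calls.

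Bile acid synthesis had 1 gene higher and 1 lower of 6 late, where 16.5% of all genes were higher and 12.6% lower. BAAT, which conjugates bile acids, was 2.96-fold higher (1.56 ± 0.15, limma adjusted p = 0.000434). ACOX2, a peroxisomal oxidase of the side chain, was lower (−0.89 ± 0.24, adjusted p = 0.0280, and up to 0.246 without 4, 8, 24 or 72 h).

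Of 13 tested transcription factors that are reported to act at the STAR promoter, none was higher in either window. Among all genes tested, 8.54% were higher and 8.2% lower in the middle window, and 16.5% higher and 12.6% lower late. CEBPA was lower in the middle window (−1.01 ± 0.14, limma adjusted p = 0.00213), and SP1 was lower in the middle window (−0.52 ± 0.07, adjusted p = 0.00228) and late (−0.67 ± 0.10, adjusted p = 0.0022). Leaving out single times gave 0 or 1 higher and 1 to 4 lower late. NR5A1, the steroidogenic factor itself, lay between 6.02 and 6.38 with miR-124, against 5.97 and 6.25 in controls, and did not pass the filter.

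Of 8 sterol efflux genes and targets of the LXR receptors, 1 was higher and 2 lower in the middle window, where 8.54% of all genes were higher and 8.2% lower. In the late window 3 were higher and 2 lower. Over all genes, 16.5% were higher and 12.6% lower late. The cholesterol exporter ABCA1 was higher in both windows (0.46 ± 0.09, limma adjusted p = 0.00906, and 0.90 ± 0.12, adjusted p = 0.00158), while the phospholipid acyltransferase LPCAT3 was lower in both (−1.0 ± 0.07, adjusted p = 0.000172, and −0.95 ± 0.14, adjusted p = 0.00226). ABCG8 was lower late (−0.57 ± 0.18, adjusted p = 0.0458), a call lost without 4, 8 or 24 h. The remaining higher call was lost without these times too. PLTP was at 1.05 ± 0.29 late (adjusted p = 0.0288, and up to 0.264 without 24 or 72 h). Without single times the late counts were 1 to 3 higher and 1 to 3 lower.

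The neighbours of STAR on the chromosome went in both directions. Of the 3 nearest protein-coding genes on each side, all 6 were tested, and their late ratios ran from −0.98 for EIF4EBP1 to 0.59 for DDHD2. EIF4EBP1 was lower late (limma adjusted p = 0.000941). DDHD2 (adjusted p = 0.0131, the change being 0.33 at 120 h alone) and LSM1 (0.36 ± 0.11, adjusted p = 0.0403) were higher. Among all genes tested, 16.5% were higher and 12.6% lower late. In the middle window EIF4EBP1 was at −0.44 ± 0.07 (limma adjusted p = 0.0044) and DDHD2 at 0.45 ± 0.07 (adjusted p = 0.0040), both lost without 24 h. There, 8.54% of all genes were higher and 8.2% lower. The LSM1 call held in 1 of 7 fits without a time, with an adjusted p of up to 0.309.

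Genes with the ratio profile most like that of STAR were named by the root mean square distance over the 7 times. The nearest were the transcription factor MAF (0.19 log2) and the histone genes H2BC21 (0.23), H1-2 (0.25) and H2BC5 (0.29). EPB41L1, SULT1C2, the readthrough CYP3A7-CYP3A51P and H2AC6 followed (0.43 to 0.46). With miR-124, MAF lay between 5.20 and 6.66 up to 32 h, and at 8.95 and 9.24 at 72 and 120 h. Its controls lay between 5.40 and 6.15. MAF thus passed the filter on low values, as STAR did, only through its late miR-124 arrays. A gene this low elsewhere entered the comparison only with high values on some arrays, and the effect on this ranking was not tested. By Pearson's r over the 7 ratios the first were SH3PXD2A, F5, ZNF512, ABCC10, DSTYK, ANXA9, NRCAM and H2BC21, at 0.996 to 0.998. Of 13127 genes compared, 326 had an r of at least 0.95, and all ratios share the same 14 arrays. Among the relatives r was 0.83 for STARD5 and STARD7, 0.79 for STARD10, 0.25 for STARD3 and −0.56 for STARD4, with distances of 1.60 to 1.97.

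**Figure D5:**
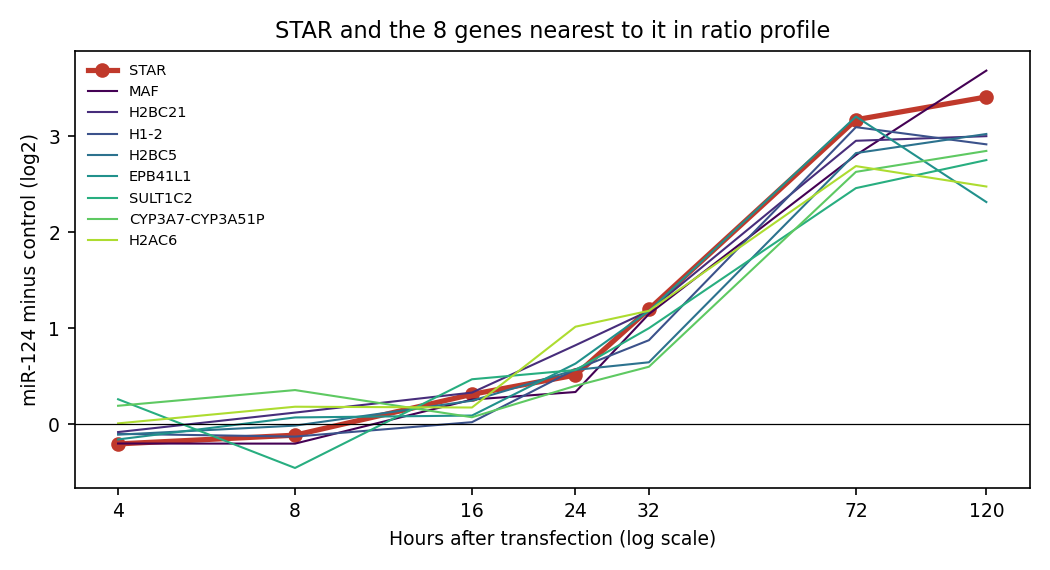
Paired ratio (miR-124 minus control, log2, vertical axis) of STAR (thick red line with points) and of the 8 genes with the smallest root mean square distance from it, by hours after transfection (log axis). The 9 lines lie between −0.45 and 0.36 at 4 and 8 h and well above that at 72 and 120 h, where STAR is at 3.17 and 3.41.

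A measure of RNA quality moved with the arms. For ACTB, the excess of the 3′ probe set over the 5′ one was larger with miR-124 in 7 of 7 pairs. At 4 h the pair was nearly equal, 0.351 with miR-124 against 0.348 in the control. That of GAPDH was smaller with miR-124 at 4 h (0.195 against 0.204) and larger at the other times. At 32 h the ACTB excess was 0.418 with miR-124, against 0.278 in its control partner. In the late window the excess was 0.357 and 0.411 with miR-124, against 0.237 and 0.102 in controls, and that of GAPDH was 0.301 and 0.199 with miR-124, against 0.145 and 0.0311 in controls. The part of this in the middle and late values of STAR and the other genes was not tested.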

How the data were processed

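HepG2 total RNA was measured on 14 one-colour oligonucleotide arrays, 7 per transfection. The authors deposited 1 log2 expression value for each probe set and array. The submitters' processing notes name RMA, and its version is not given in the sources used here. RMA equalises the distributions of the arrays, which hides any change in the whole messenger RNA content of a cell. That the scale is log2 follows from their range, 2.93 to 14.37. The number of arrays limits the precision.

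Of 54675 probe sets, 62 were controls, 41091 had 1 gene symbol, 1801 several and 11721 none listed. For each gene the probe set with the highest mean was used, and 13128 genes with a mean above 6.19, the median of all probe sets, were tested. Tests used limma 3.58.1 in R 4.3.3 (lmFit with eBayes) as two-sided tests at an adjusted p under 0.05, by Benjamini-Hochberg over all genes tested, with time as a block, since the labels give each time in both arms. The deviations from the arm means correlated within each of the 7 pairs (0.21 to 0.48). The early and middle windows had 3 residual degrees of freedom, the late window 4 and the control slope 5. The fits were tested on simulated data. Figures used matplotlib 3.10.9 in Python 3.11.15.

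The members and gene lists were chosen with earlier results of these data known. The genes named were every member, up to 4 genes called per list and window, the 6 other START genes tested, the nearest genes on the chromosome and the 8 most like STAR by 2 measures. The test of the middle against the early effect was added after seeing the data. Alternatives used every probe set, no filter, median centring, no time block, other sets of arrays, and each time left out. Sequences came from RefSeq (GRCh38.p14), where 5 members matched.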

Additional observations from a re-analysis of the deposited data

Results flagged for a closer look

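The ratio of STAR had opposite signs in the early and later windows, but no early effect was shown (−0.16 ± 0.18, SE, limma adjusted p = 0.9997). Both early pairs were below 0, and all pairs of the middle and late windows were above 0. The middle effect exceeded the early one by 0.83, which did not pass when tested (limma adjusted p = 0.108). The late effect exceeded the early one by 3.45, a difference that was not tested because the late ratio of STAR was known when it was chosen.

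The second STARD10 probe set was below 0 in both early pairs and above 0 in both late pairs, a difference of 0.57 that was not tested. For the 8 member probe sets, no array stood apart from the others of its arm in any of the 16 sets of 7 values checked, in which time also varies. Other measures were not checked in this way. The 18S ribosomal RNA signal was 11.05 at 4 h with miR-124, against 7.60 to 8.28 on the other miR-124 arrays.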

How the results depend on the processing

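The rise of STAR in the middle window kept its direction in all 10 alternatives (0.41 to 0.86) and passed in 9, the exception being the fit without 24 h (0.75, limma adjusted p = 0.0668). With 3 windows over all 14 arrays its limma adjusted p was 0.0379, and without the time block (the pairing of arrays) it was 0.0356. The change was 0.67 in each. The fit over all 14 arrays takes in the late arrays, whose ratios were used to choose STAR. Its pass, counted among the 9, is therefore not independent of that choice. The slope of STARD4 in controls passed in all 10. That of STARD7 was lost in 8, with values of −0.12 with every probe set and with no filter, and −0.15 to −0.07 when a time was left out. Without the time block no call of a member changed.

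Counts of genes over the whole array moved more. The middle count of 2197 was 3609 with every probe set, 1028 with 3 windows over all 14 arrays, and 713 to 2659 without single times (713 without 24 h, 970 without 32 h). For the late window, 3822 genes became 7030 with every probe set, 550 on the 4 late arrays alone and 2862 to 4894 without single times. For the control slope, 1077 became 1826 with every probe set and 229 to 1116 without single times. The early count was 0 in every fit run.

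Small values that no test called changed sign in places. Without single times the early value ran from −0.20 to 0.12 for STARD3, −0.086 to 0.015 for STARD4, −0.036 to 0.063 for STARD5, −0.010 to 0.0044 for STARD7 and −0.27 to 0.087 for STARD10. The middle value ran from −0.081 to 0.073 for STARD3, −0.0051 to 0.071 for STARD4 and −0.033 to 0.24 for STARD10. The control slope ran from −0.037 to 0.056 for STAR, −0.011 to 0.027 for STARD3 and −0.031 to 0.016 for STARD5. Median centring gave −0.0055 for STARD5 early and −0.0025 for the slope of STARD3. It moved the late means of the 6 genes by less than their spread. The third STARD10 probe set gave a late mean of 0.09, against 0.39 for the first. The cause of these shifts was not tested.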
